A study of Mus musculus with 16 samples.

Results

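Malat1, Neat1, Miat, Gas5, Kcnq1ot1 and Snhg1 are long noncoding RNAs, transcripts that carry no long reading frame and act as RNA. They were taken by name from a table of estimated read counts, where they are 6 of 24411 genes. The table holds RNA-seq of freshly sorted mouse muscle stem cells (MuSCs) in 16 libraries from rRNA-depleted RNA primed at random positions, so that RNAs without a poly(A) tail could be read too. It asks how loss of TRF2, a protein of the telomere-capping shelterin complex encoded by Terf2, and muscle injury change the transcriptome of these cells. All animals were on a C57BL/6 background. The 4 groups of 4 libraries were uninjured MuSCs of control and of TRF2 MuSC-cKO mice, and MuSCs labelled as either genotype at 3 days post injury (3 DPI) with notexin, a snake-venom toxin that destroys myofibers, at 10 μl. In TRF2 MuSC-cKO mice, floxed Terf2 alleles were recombined by tamoxifen-induced Cre under Pax7, so deletion was limited to cells that used Pax7; controls were labelled wild type. Cells were sorted as negative for CD45, CD31, CD11b and Sca1 and positive for VCAM or CD34 and α7-integrin, and the age and sex behind each library were not given in the labels. In the paper's methods notexin went into the tibialis anterior muscle, while MuSCs were isolated from all hindlimb muscles. Which muscles fed the 3 DPI sort is not clear.

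Malat1 lies in nuclear speckles, where splicing factors gather. Neat1 is the scaffold of paraspeckles, nuclear bodies that need its long isoform. Miat is a nuclear RNA that binds splicing factors. Kcnq1ot1 is an imprinted RNA read from the paternal allele, antisense to Kcnq1, that silences neighbouring genes. Gas5 and Snhg1 are host genes whose introns hold small nucleolar RNAs (snoRNAs) and whose spliced RNAs are removed by nonsense-mediated decay during translation.

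Malat1 (GRCm38, chr19:5795690-5802672, minus strand, 6.983 kb) and Neat1 (chr19:5824708-5845478, minus strand, 20.771 kb) are neighbours with a gap of 22.035 kb. Their longest annotated transcripts share an unusual 3′ end, in which 2 U-rich stretches and an A-rich tract form a triple helix that stands in for a poly(A) tail. The end is shown because it is why random priming matters for these 2 transcripts. Capitals mark the words of 10 or more bases that both transcripts hold in their last 400 bases, read 5′ to 3′ on the minus strand at chr19:5795982-5796081 for Malat1 and chr19:5824708-5824807 for Neat1.
Malat1 3′ end: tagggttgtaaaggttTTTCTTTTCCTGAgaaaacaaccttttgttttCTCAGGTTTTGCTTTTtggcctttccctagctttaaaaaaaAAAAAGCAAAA
Neat1 3′ end: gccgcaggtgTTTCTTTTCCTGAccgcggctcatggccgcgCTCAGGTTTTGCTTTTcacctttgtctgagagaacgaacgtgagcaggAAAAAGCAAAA
The 3 shared words lie in the same order in both, with the U-rich words TTTCTTTTCCTGA and CTCAGGTTTTGCTTTT first and the A-rich word AAAAAGCAAAA last. In the annotation used (GENCODE), 292 bases followed this window in the longest Malat1 transcript, a stretch that begins with the tRNA-like RNA cut from its end, and 0 bases followed it in the longest Neat1 transcript. Among 122312 transcripts of at least 400 bases, the A-rich word was in the last 400 bases of 143 (0.117%), TTTCTTTTCCTGA in 6 and CTCAGGTTTTGCTTTT in 2, counting these 2 transcripts from which the words were taken.

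The other members differ in form. Miat spans chr5:112213228-112229395 on the minus strand, Gas5 spans chr1:161034422-161038539 on the plus strand with up to 12 exons, and Snhg1 spans chr19:8723475-8726443 on the plus strand with up to 10 exons. Kcnq1ot1 is a single exon of 93.092 kb at chr7:143203458-143296549 on the minus strand, inside Kcnq1 on the opposite strand. The library kit keeps the strand, but how strand was set in the counting is not given in the sources used here, so reads of Kcnq1 introns cannot be set apart from Kcnq1ot1 with certainty.

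Snhg1 gave the lowest counts of the members, and its promoter and the start regions of both snoRNA hosts are shown because these RNAs are known for starting in a pyrimidine run, the 5′ TOP element of growth-regulated transcripts. RefSeq promoter windows run from 250 bases before to 50 bases after a start, on GRCm38.p6; 5 of 6 members had one or more, with 6 starts in all. The Snhg1 window is chr19:8723237-8723536 on the plus strand, with capitals marking CCCTAA, the telomere repeat TTAGGG read on the other strand.
Snhg1 promoter: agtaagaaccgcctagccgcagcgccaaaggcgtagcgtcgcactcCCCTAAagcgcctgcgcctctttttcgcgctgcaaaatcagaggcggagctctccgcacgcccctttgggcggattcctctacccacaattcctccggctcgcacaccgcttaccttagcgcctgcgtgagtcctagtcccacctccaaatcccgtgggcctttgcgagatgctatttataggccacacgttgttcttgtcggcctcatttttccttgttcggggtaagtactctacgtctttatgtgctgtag
The 2 stretches next shown run from 10 bases before to 30 bases after the start, with the longest run of C and T in capitals; the Gas5 one comes from its second window, chr1:161034916-161035215 on the plus strand.
Gas5 start 2: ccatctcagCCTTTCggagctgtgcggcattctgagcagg
Snhg1 start: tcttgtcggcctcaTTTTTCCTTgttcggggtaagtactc
The run was 6 bases long in this Gas5 window but 3 in its other one, 9 in Snhg1 and 7 in Miat, which is no snoRNA host, and 4 in Malat1 and Kcnq1ot1, and 35.2% of 32851 promoters held a run of 6 or more there. TTAGGG, searched on both strands because TRF2 binds this repeat at telomeres, was in 10.6% of all promoters and in 1 of 6 member windows, that of Snhg1. The E-box CAGCTG, a sequence bound by myogenic factors, was in 16.3% of promoters and in 1 member window, that of Malat1. Letters that could fold into a G-quadruplex (4 runs of GGG with 1 to 7 bases between them) were in 18.5% of promoters and in 0 of 6 member windows. These matches describe letters only; no binding was measured here.

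Libraries held 620506 to 1351130 estimated counts, with the lowest total in a control library at 3 DPI. One library labelled TRF2 knockout at 3 DPI, replicate 3, stood apart with 15387 genes counted, where every other library had 19996 or more, and the members' fold changes from each comparison's own edgeR fit are given with and without it. The Snhg1 count ratios and fits at 3 DPI, to which it gave 0 counts, the ratios by label code, values of other genes and correlations include it. Levels in CPM are counts divided by the library total after TMM scaling, so they are not plain shares of the counts. Terf2, the deleted gene, stood at 70.4, 93.0, 64.7 and 72.0 CPM in uninjured controls and at 48.2, 45.6, 57.0 and 26.6 CPM in uninjured TRF2 MuSC-cKO, which did not overlap (log2 fold change −0.62, edgeR adjusted p = 0.199). At 3 DPI it stood at 34.5, 47.4, 47.2 and 41.9 CPM in controls and at 51.2, 21.2, 64.2 and 87.1 CPM in the libraries labelled TRF2 knockout, so the mean went against the label there; how the deleted exons bear on a count over the whole gene was not tested. Summed CPM of 10 MuSC markers ran from 3496 to 5365 in uninjured controls, 1883 to 2824 in uninjured TRF2 MuSC-cKO, 826 to 1229 in controls at 3 DPI and 452 to 634 in libraries labelled TRF2 knockout at 3 DPI. Summed CPM of 10 immune markers ran from 51.9 to 164 in uninjured libraries, 4054 to 5239 in controls at 3 DPI and 1650 to 4755 in libraries labelled TRF2 knockout at 3 DPI. In bulk RNA, fewer cells of a type and less RNA per cell cannot be told apart. The label code carried by the 4 uninjured controls (JH135-M or JH140-M) was never that of the 4 uninjured knockouts (JH134-M or JH139-M), so code and genotype cannot be told apart there; the labels do not say what the code stands for.

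Malat1 was the most abundant member in every library. Its share of all estimated counts was 3.04, 3.06, 2.19 and 2.61% in uninjured controls and 2.85, 2.88, 2.64 and 2.82% in uninjured TRF2 MuSC-cKO. The share was 1.45, 1.01, 1.81 and 1.23% in controls at 3 DPI and 1.47, 1.35, 1.23 and 1.77% in libraries labelled TRF2 knockout at 3 DPI. All 8 uninjured libraries thus lay above all 8 injured ones, and within each state controls and knockout-labelled libraries overlapped. The counting error was small beside this spread (95% exact binomial interval 2.16 to 2.22% around the lowest uninjured value), and it covers counting error only. In group means of CPM, Malat1 had rank 2 of 24411 genes in 3 groups and rank 3 in the libraries labelled TRF2 knockout at 3 DPI.

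Neat1 stood at 2137, 2002, 1642 and 2142 CPM in uninjured controls and at 1949, 1106, 1689 and 1219 CPM in uninjured TRF2 MuSC-cKO. At 3 DPI it stood at 544, 409, 652 and 503 CPM in controls and at 691, 526, 360 and 540 CPM in libraries labelled TRF2 knockout. The highest injured library was thus below the lowest uninjured one in controls and in knockout-labelled libraries, and these overlapped each other in both states.

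Gas5 stood at 197, 167, 81.8 and 170 CPM in uninjured controls and at 79.1, 66.9, 113 and 118 CPM in uninjured TRF2 MuSC-cKO. At 3 DPI its values were 64.4, 74.9, 49.1 and 70.1 CPM in controls and 36.4, 23.4, 47.6 and 44.1 CPM in libraries labelled TRF2 knockout. Uninjured control replicate 3 lay well under the other 3 controls and inside the TRF2 MuSC-cKO range, while at 3 DPI the lowest control was just above the highest knockout-labelled library.

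Kcnq1ot1 stood at 670, 828, 575 and 643 CPM in uninjured controls and at 643, 798, 601 and 506 CPM in uninjured TRF2 MuSC-cKO. At 3 DPI it stood at 481, 332, 509 and 385 CPM in controls and at 453, 463, 583 and 554 CPM in libraries labelled TRF2 knockout. Only the controls were separated by injury, with the lowest uninjured control above the highest injured one.

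Miat stood at 92.4, 90.4, 46.6 and 62.4 CPM in uninjured controls and at 73.4, 102, 59.8 and 63.8 CPM in uninjured TRF2 MuSC-cKO. At 3 DPI its values were 39.0, 50.2, 80.0 and 61.3 CPM in controls and 91.1, 129, 238 and 172 CPM in libraries labelled TRF2 knockout. The 4 libraries labelled TRF2 knockout at 3 DPI were each above every control at 3 DPI, and replicate 3, which stood apart in genes counted, was the highest.

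Snhg1 was read from few counts: 26, 27, 16 and 13 in uninjured controls, 15, 11, 10 and 5 in uninjured TRF2 MuSC-cKO, 13, 21, 7 and 13 in controls at 3 DPI, and 1, 0, 0 and 0 in libraries labelled TRF2 knockout at 3 DPI. The last group was the one nearly without reads, and each library there could miss an RNA of up to 3.35 to 3.57 CPM (3 counts).

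**Figure D1:**
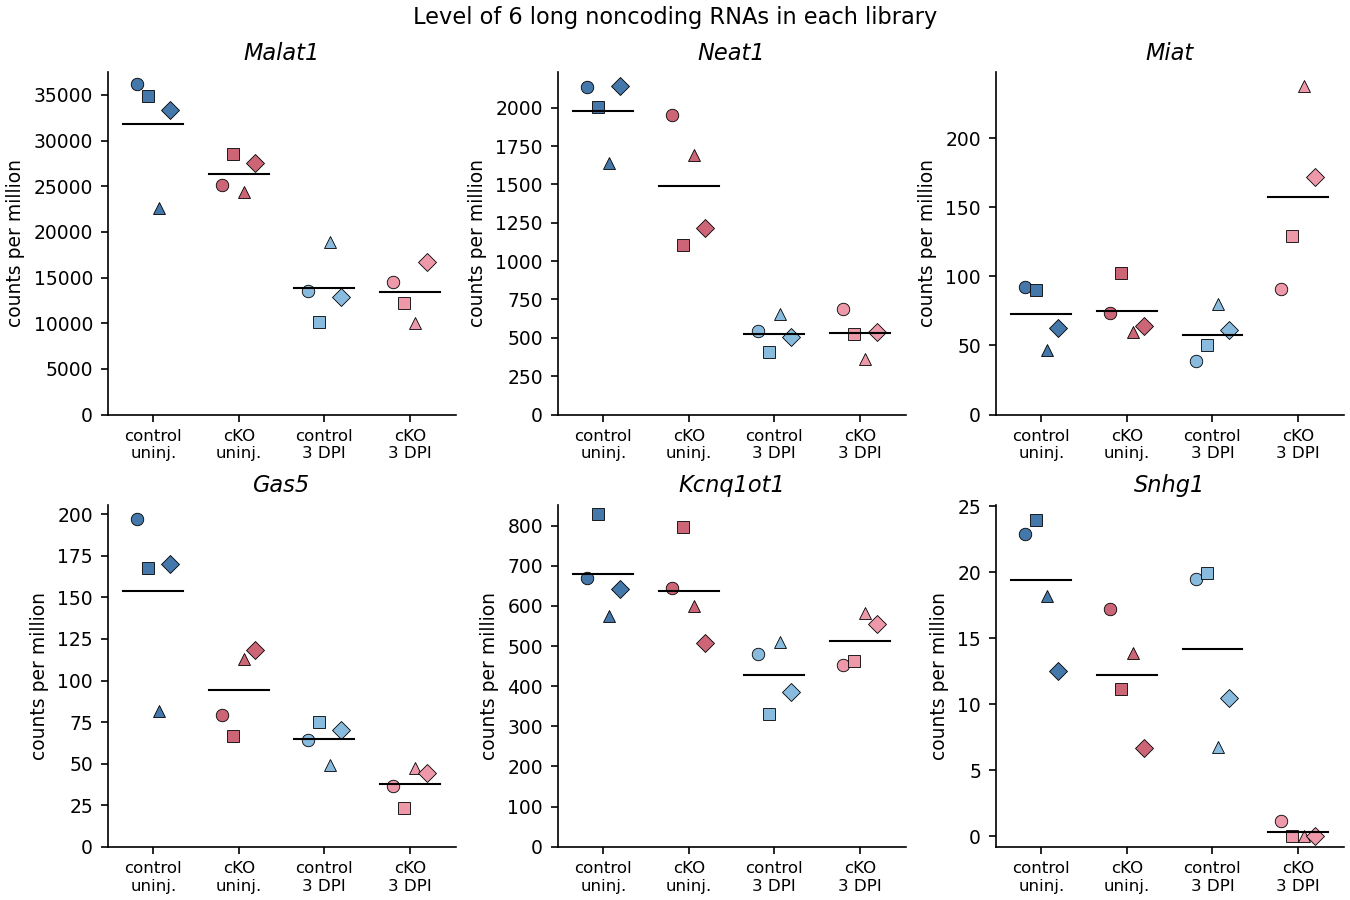
Levels of the 6 members in CPM (one panel per RNA, own axis), one point per library and the group mean as a line, 4 libraries in each of the 4 groups. Malat1 and Neat1 sit lower in all 8 injured libraries. The group mean of Miat is highest in libraries labelled TRF2 knockout at 3 DPI, with single libraries overlapping uninjured ones, and Snhg1 is at 1 count or 0 in that group.

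Compared per length, as length-scaled abundance (TPM, transcript share scaled to a fixed total) made from the second deposited table, the order in uninjured controls was Malat1 (10212.5 TPM), Neat1 (873), Gas5 (138), Snhg1 (114), Miat (18.8) and Kcnq1ot1 (18.1). Gas5 and Snhg1 overlapped in their library values, as did Miat and Kcnq1ot1, so these neighbours in the order did not differ beyond their spread. At 3 DPI the means, with genes listed as above, were 4637, 245, 60.6, 84.5, 15.2 and 11.9 TPM in controls. They were 5127, 263, 41.4, 1.76, 50.1 and 16.6 TPM in libraries labelled TRF2 knockout. The ranking of means thus changed, with Snhg1 above Gas5 in controls. In knockout-labelled libraries Miat was above Gas5 and Snhg1 was lowest. Gas5 overlapped in library values with Snhg1 in those controls and with Miat in those knockout-labelled libraries. As a yardstick for background, olfactory receptor genes, most of which are silent outside the nose, averaged 4.08 to 13.6 TPM per library. Kcnq1ot1 lay at 1.25 to 5.03 times that mean and Miat at 1.21 to 6.35 times, while the lowest Neat1 value was 6.67 times. In libraries labelled TRF2 knockout at 3 DPI, Gas5 was as low as 2.41 times and Snhg1 lay at 0 to 0.911 times. The label "abundant" thus holds per length for Malat1 and Neat1, much less for Miat and Kcnq1ot1, and not for Snhg1 in that group.

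**Figure D2:**
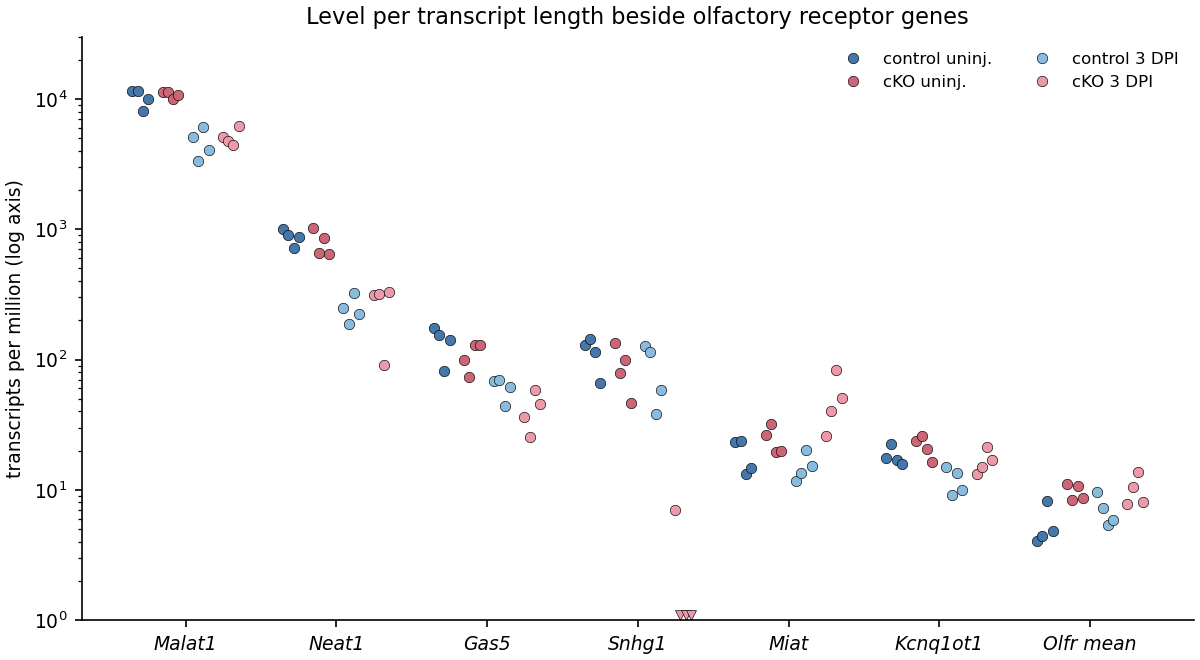
Levels of the 6 members per transcript length (TPM, log10 axis) in each of the 16 libraries, with values of 0 drawn as triangles at the lower edge. Malat1 lies at 3356 TPM or more in every library, whereas Miat (1.21 to 6.35 times) and Kcnq1ot1 (1.25 to 5.03 times) lie above the mean of olfactory receptor genes by far less than Malat1.

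The first comparison asks what injury did in control MuSCs. Malat1, Neat1, Gas5 and Kcnq1ot1 fell (called lower: adjusted p under 0.02 and over 1.5-fold). Malat1 fell by 1.14 on the log2 scale (SE 0.20, edgeR adjusted p = 1.13e-05) and Neat1 fell by 1.86 (SE 0.19, adjusted p = 9.24e-11). Gas5 fell by 1.20 (SE 0.23, adjusted p = 5.35e-05) and Kcnq1ot1 fell by 0.62 (SE 0.19, adjusted p = 0.0114). Miat (−0.28, SE 0.26, adjusted p = 0.510) and Snhg1 (−0.43, SE 0.45, adjusted p = 0.566) were not called, and their libraries overlapped. Across 15356 genes tested, 9.46% were called lower and 10.8% higher, 12.4% had injured libraries all below the uninjured ones and 11.8% all above. The members' median was −0.88 beside 0.07 for all genes. The Kcnq1ot1 call was lost without uninjured control replicate 1 or 2 or control 3 DPI replicate 2 or 4 (adjusted p up to 0.0725), and in 5 of 9 alternative fits (adjusted p up to 0.195). All 8 tested immune markers were called higher and 9 of 10 MuSC markers lower in the same comparison, and 4 of 6 fibroadipogenic markers higher and 1 lower. Of 6 endothelial markers 1 was called lower, and of 7 tested myofiber markers 1 was called higher. Of 5 mural cell markers, 2 were called lower, Notch3 (−2.75), which MuSCs also use, and Acta2 (−0.80), and their summed level went from 1983 to 3123 CPM uninjured to 592 to 863 CPM at 3 DPI; the part of all these markers in the members' falls was not tested. Within the label code JH140-M (1 uninjured and 2 injured controls) Malat1 changed by −1.07, Neat1 by −1.89, Gas5 by −1.51, Kcnq1ot1 by −0.52, Snhg1 by −0.54 and Miat by 0.18, the last opposite in sign to its fitted value.

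The same injury comparison in the 8 libraries labelled TRF2 knockout, of which the injured 4 had Terf2 levels that went against the label, also showed Malat1 and Neat1 lower. Malat1 fell by 1.04 (SE 0.20, edgeR adjusted p = 0.00598) and Neat1 fell by 1.56 (SE 0.26, adjusted p = 0.00203). Gas5 was at −1.36 (SE 0.36, adjusted p = 0.0367), which missed the threshold although no injured library overlapped an uninjured one; without 3 DPI replicate 3 its value was −1.47 (adjusted p = 0.00289). Kcnq1ot1 (−0.37, SE 0.22, edgeR adjusted p = 0.484) and Miat (1.02, SE 0.33, adjusted p = 0.106) were not called and their libraries overlapped. Snhg1 failed the low-count filter here, so the members' median covers 5 members, and its counts are given further on. Here 1.61% of 14578 genes were called lower and 2.43% higher, 6.74% did not overlap on the low side and 6.81% on the high side, and the members' median was −1.04 beside 0.01 for all genes. In these libraries 7 of 8 tested immune markers were called higher and 7 of 10 MuSC markers lower, and 1 of 5 mural markers lower, Notch3 (−2.85), with a summed mural level of 1633 to 2332 CPM uninjured and 660.2 to 752 CPM at 3 DPI; their part was not tested. Without 3 DPI replicate 3, Malat1 was at −0.90 (adjusted p = 0.00126) and Neat1 at −1.39 (adjusted p = 8.31e-05), Miat at 0.76 (adjusted p = 0.0933) and Kcnq1ot1 at −0.42 (adjusted p = 0.309), and 513 genes were called lower and 803 higher where all 8 libraries gave 235 and 354, while the Malat1 call was lost in 5 of the 8 fits that left out 1 library. With the second deposited table neither was called (edgeR adjusted p = 0.0318 for Malat1 and 0.122 for Neat1), and with the replicate number as a block Malat1 was not called (0.0202). Within the label code JH139-M (1 uninjured and 2 injured) Malat1 changed by −1.04, Neat1 by −1.44, Gas5 by −1.37, Miat by 1.68 and Kcnq1ot1 by 0.17, the last opposite in sign to its fitted value. Both injury comparisons were made on separate libraries, and neither showed a member called higher.

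**Figure D3:**
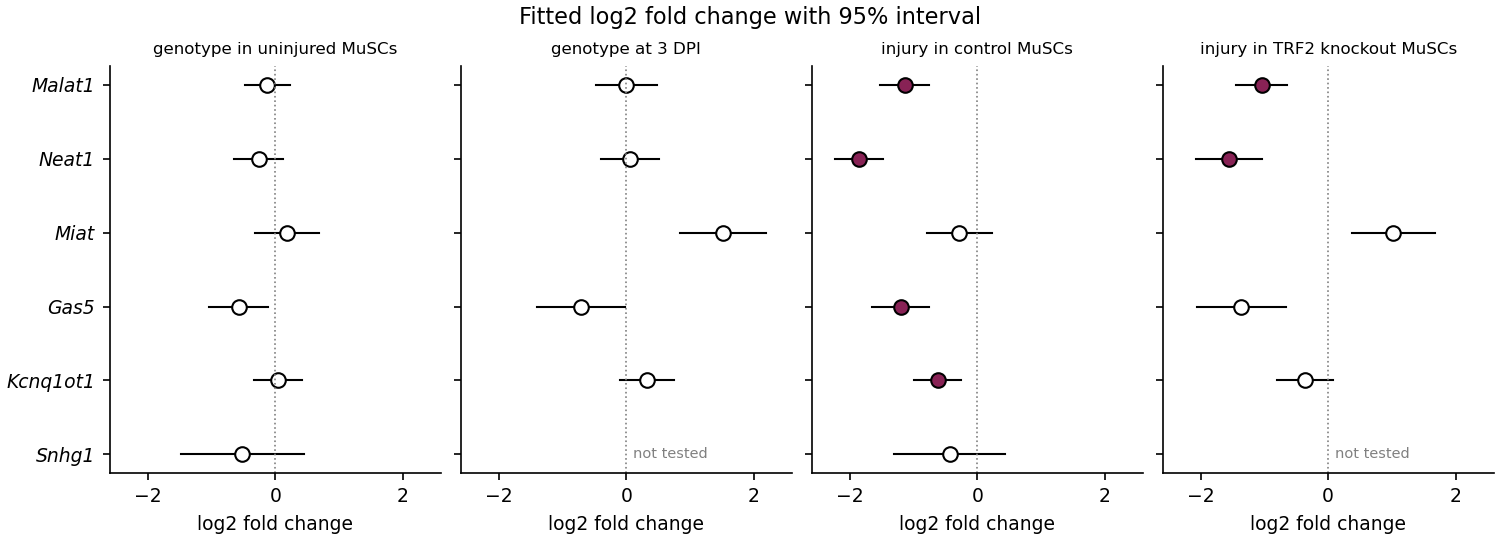
Log2 fold changes of the members with 95% intervals from edgeR in the genotype and injury comparisons, each fitted on 8 libraries. Malat1 and Neat1 lie below 0 in both injury comparisons and near 0 in both genotype comparisons.

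The second question was the effect of TRF2 loss in uninjured MuSCs, and 0 of 6 members were called. The value of Gas5 was −0.57 (SE 0.23, edgeR adjusted p = 0.155), and without control replicate 3 it was at −0.80 (adjusted p = 0.0236). Malat1 (−0.12, SE 0.18, adjusted p = 0.746, and 0.068 with scaling by library size alone), Neat1 (−0.26, SE 0.20, adjusted p = 0.484), Snhg1 (−0.52, SE 0.50, adjusted p = 0.597), Miat (0.18, SE 0.26, adjusted p = 0.733) and Kcnq1ot1 (0.05, SE 0.19, adjusted p = 0.915, and −0.027 without the low-count filter) all overlapped between genotypes. Of 14048 genes, 2.63% were called lower and 0.584% higher, while 9.47% did not overlap on the low side and 3.3% on the high side. Leaving out 1 library gave 214 to 488 genes called lower and 40 to 86 higher, and counts under other scalings are given at the end. In this comparison 7 of 10 MuSC markers were called lower and 1 of 5 mural markers higher. Of 4 tested fibroadipogenic markers, 1 was called lower and 1 higher, and 0 of 5 tested immune markers were called. The part of these markers in the values here was not tested. Neat1 is known as a p53 target; of 15 other p53 target genes, 9 were called higher here, among them Cdkn1a at 2.37, Phlda3 at 2.07, Zmat3 at 1.82 and Eda2r at 1.74 on the log2 scale, beside a median of 0.06 for all genes. At 3 DPI 0 of these 15 were called, as were 0 of all 14559 genes (list median −0.08, Cdkn1a −0.11). In the test of whether the injury response differed, 2 of 15 were called lower, Cdkn1a (−2.40) and Ccng1 (−2.40), beside 0.0178% of all genes.

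At 3 DPI, Malat1 and Neat1 had nearly the same mean level in controls and in libraries labelled TRF2 knockout. The log2 difference of Malat1 was 0.0016 (95% interval −0.48 to 0.49; −0.082 without the low-count filter) and that of Neat1 was 0.06 (−0.40 to 0.51; −0.021 without the filter). Miat stood at 1.51 (SE 0.35, unadjusted p = 0.000774 in edgeR, adjusted p = 0.452), with all 4 libraries above every control; this did not pass the test. Without replicate 3 it was 1.20 (adjusted p = 0.0712), and Malat1 was at 0.092, Neat1 at 0.18, Gas5 at −0.87 and Kcnq1ot1 at 0.23 (adjusted p = 0.257 or more). Within the label code JH133-M, which 2 libraries of each genotype carried, the log2 ratio of Miat was 1.31, and between the other libraries 1.54. The same ratios were 0.18 and −0.25 for Malat1 and 0.35 and −0.36 for Neat1. Gas5 stood at −0.71 (SE 0.35, adjusted p = 0.549), with no overlap, and its log2 ratio was −1.22 within JH133-M and −0.38 between the other libraries (JH140-M controls and JH139-M knockouts). Kcnq1ot1 was at 0.33 (SE 0.22, adjusted p = 0.657) and overlapped. Of 14559 genes tested, edgeR called 0 (0% lower and 0% higher), with 1362 at an unadjusted p under 0.05; limma-voom called 0, DESeq2 called 5 lower and 1 higher, and robust limma on log2 CPM called 18 lower and 10 higher. Libraries did not overlap for 5% of genes on the low side and 2.87% on the high side. Set against the olfactory receptor mean of each library, Miat was 1.21 to 3.74 times that mean in controls at 3 DPI and 3.34 to 6.35 times in libraries labelled TRF2 knockout, and the part of read background or cell mix in the Miat difference was not tested.

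Snhg1 failed the low-count filter in this comparison, so its values rest on the counts. The controls at 3 DPI gave 54 counts and the libraries labelled TRF2 knockout 1 count, a depth-adjusted ratio of 47.2 (95% exact counting interval 8.13 to 1900; counting error only). The 4 libraries of each group did not overlap, and the exact two-sided permutation test gave p = 0.0286, the smallest it can give with 70 relabelings. Against uninjured TRF2 MuSC-cKO libraries the counts were 41 and 1, a ratio of 43.1 (7.31 to 1743), with the same exact p. In a fit of all 16 libraries the log2 differences were −5.07 (edgeR adjusted p = 0.0385) and −4.88 (adjusted p = 0.000761). Snhg1 passed the filter there only through the groups where it was higher, so no conclusion is drawn from these p-values. Without the filter the differences were −5.10 (edgeR adjusted p = 0.438) and −4.91 (adjusted p = 0.0624). All these fitted values depend on the prior count. Of 13560 genes with at least 50 counts in controls at 3 DPI, 11 (0.0811%) had at most 1 in the libraries labelled TRF2 knockout. Snord22, the snoRNA in the body of Snhg1 that the table lists on its own, gave 4, 7, 1 and 4 counts in controls and 0, 3, 0 and 0 in libraries labelled TRF2 knockout at 3 DPI, with overlap (exact permutation p = 0.0857). Uninjured TRF2 MuSC-cKO libraries gave 24, 5, 8 and 12 Snord22 counts and uninjured controls 23, 12, 7 and 21. In CPM, Snord22 was lower after injury without overlap in controls and in knockout-labelled libraries (exact permutation p = 0.0286 in each). The length implied for Snhg1 by the 2 deposited tables was 0.379 to 0.405 kb, and tested genes with an implied length under 0.5 kb had a median log2 difference of −0.80 (128 genes) between the labelled genotypes at 3 DPI, beside 0.00 for all genes, and of −0.68 (97 genes) in uninjured MuSCs. In the injury comparisons the median of such genes was 0.03 (81 genes) in knockout-labelled libraries, where Snhg1 went from 41 counts to 1, and 0.40 (138 genes) in controls. The part of this length-related shift in the Snhg1 difference at 3 DPI was not tested.

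The test of whether the injury response differed between genotypes (interaction) called 0 of 6 members, where 0.0178% of 16822 genes were called lower and 0% higher. Miat was at 1.40 (SE 0.45, unadjusted p = 0.00424, edgeR adjusted p = 0.582) and Snhg1 at −4.43 (SE 1.15, unadjusted p = 0.000692, adjusted p = 0.332), a fitted value that ran from −4.86 to −2.14 over 8 alternative fits, with adjusted p from 0.0290 to 0.680. Here too Snhg1 passed the filter only through the groups where it was higher, so no conclusion is drawn from its p-values. Without 3 DPI replicate 3 of the knockout-labelled libraries, Miat was at 0.999 (adjusted p = 0.511) and Snhg1 at −4.24 (adjusted p = 0.163). Malat1 was at 0.21, Neat1 at 0.41, Gas5 at −0.06 (0.023 in robust limma) and Kcnq1ot1 at 0.36; without that library they were at 0.21, 0.44, −0.30 and 0.17.

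The fall of Neat1 was also set against that of Malat1 within each library. Per 100 Malat1 counts there were 5.91, 5.74, 7.25 and 6.42 Neat1 counts in uninjured controls and 4.03, 4.05, 3.44 and 3.90 in controls at 3 DPI. The groups did not overlap (exact two-sided permutation p = 0.0286, the smallest possible; 0.114 adjusted over 4 such comparisons). In libraries labelled TRF2 knockout the ratio was 7.76, 3.88, 6.91 and 4.43 uninjured and 4.78, 4.30, 3.59 and 3.22 at 3 DPI, which overlapped (exact two-sided permutation p = 0.171, adjusted 0.343). Across the 16 libraries, log2 CPM of Malat1 and Neat1 correlated at r = 0.937; within the 8 uninjured libraries r was 0.409 and within the 8 injured ones 0.837. These are descriptions, and the points share the scaling and the 4 groups.

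The 2 deposited tables also imply a mean transcript length for Neat1, whose 4 annotated transcripts include a long isoform of 20.771 kb and a short one of 3.004 kb. The implied length had a median of 5.10 kb over the 16 libraries; it ran from 4.23 to 6.0 kb in 15 of them and was 12.1 kb in 3 DPI replicate 3 of those labelled TRF2 knockout. That library also had the lowest Neat1 level, 360 CPM. The lengths assume 6.983 kb for Malat1 and describe the quantifier's split of reads, not isoforms measured apart.

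**Figure D4:**
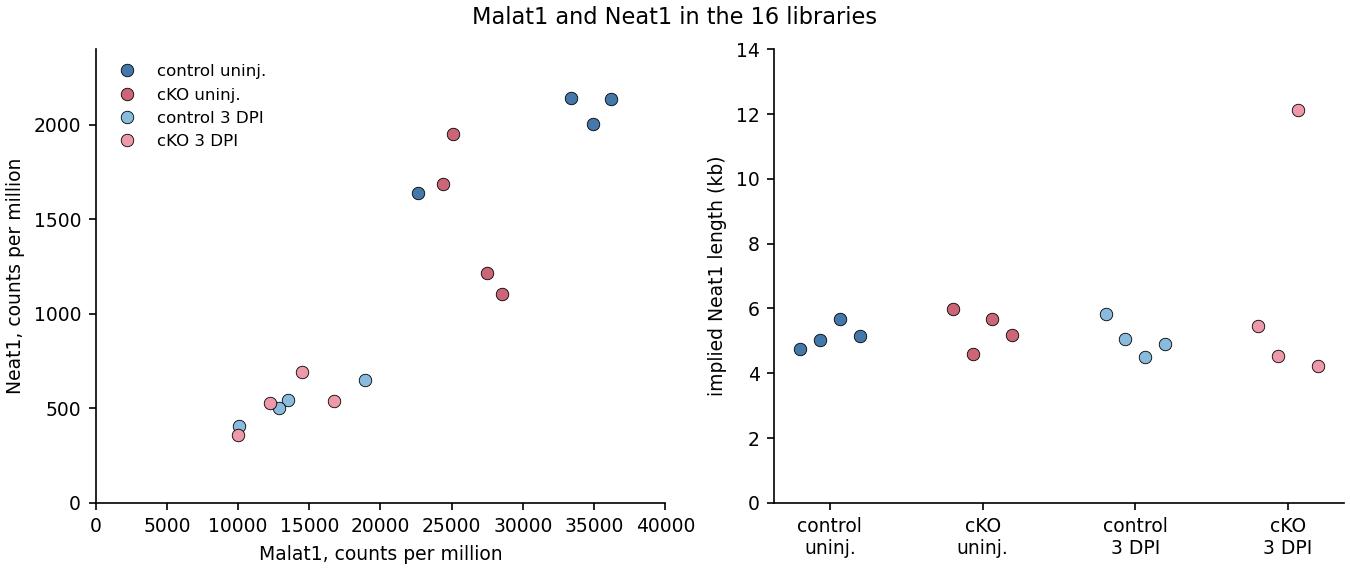
Left, Neat1 against Malat1 in CPM for the 16 libraries; right, the implied mean Neat1 length in kb by group. Uninjured and injured libraries form separate clouds, and 1 library labelled TRF2 knockout at 3 DPI lies at 12.1 kb.

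Proteins of nuclear speckles, where Malat1 lies, and of paraspeckles, which Neat1 scaffolds, were looked at as lists; values of list genes in knockout-labelled libraries include 3 DPI replicate 3. Of 17 nuclear speckle proteins, 6 were called lower after injury in controls, including the speckle core protein Son (−1.11), the splicing factors Srsf5 (−1.12) and Srsf6 (−1.06) and the helicase Ddx39b (−1.01), where 9.46% of all genes tested were, with a list median of −0.49 beside 0.07 for all genes. In knockout-labelled libraries 2 of 17 were called lower after injury, Son (−1.35) and Srsf6 (−1.32), where 1.61% of all genes were, with a list median of −0.71 beside 0.01. Of 15 paraspeckle proteins, 1 was called lower after injury in controls, the Neat1-binding protein Sfpq (−0.68), a share no higher than the 9.46% of all genes, and 0 in knockout-labelled libraries; in uninjured MuSCs 1 of 15, Hnrnpk, was called lower in TRF2 MuSC-cKO (−0.76), beside 2.63% of all genes. Among 4 splicing factors that bind Miat, Qk was called lower in uninjured TRF2 MuSC-cKO (−0.76), 1 of 4 beside 2.63% of all genes. Rpph1, the RNA of RNase P, which cuts the 3′ ends of Malat1 and long Neat1, fell after injury by both comparisons (−1.004 in controls and −1.59 in knockout-labelled libraries, edgeR adjusted p = 3.90e-05 and 0.00478).

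Of 13 tested neighbours of Malat1 and Neat1, 1 fell and 1 rose in each injury comparison, which in controls is near the 9.46% lower and 10.8% higher of all genes and in knockout-labelled libraries stands beside 1.61% and 2.43%, shares that rest on 3 DPI replicate 3 being included. Ltbp3, a TGF-β-binding protein, fell (−1.76 in controls and −1.56 in knockout-labelled libraries), and Ehbp1l1 rose (1.01 and 1.37). Within the imprinted domain of Kcnq1ot1, Cdkn1c, the cell cycle inhibitor that this RNA is known to silence on the paternal allele, was lower in uninjured TRF2 MuSC-cKO (−1.25, edgeR adjusted p = 0.00259), as was Nap1l4 (−1.06, adjusted p = 0.0130), 2 of 7 tested genes beside 2.63% of all genes. In the same comparison 7 of 10 MuSC markers were called lower, and their part in these values was not tested. Cdkn1c stood at 66.5 to 140 CPM in uninjured controls and 31.4 to 43.9 CPM in uninjured TRF2 MuSC-cKO. At 3 DPI it stood at 68.5 to 104 CPM and 16.7 to 29.7 CPM, again with no overlap (−1.98, adjusted p = 0.418), while Kcnq1ot1 itself overlapped in both. After injury in controls Osbpl5 (−1.13) and Cd81 (−0.61) were lower, 2 of 6 tested beside 9.46% of all genes.

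The counts in this paragraph stand beside 9.46% of all genes called lower and 10.8% higher after injury in controls, 1.61% lower after injury in knockout-labelled libraries and 2.63% lower in uninjured TRF2 MuSC-cKO. Of 9 tested snoRNA host genes, 2 were called lower after injury in controls, Gas5 and Snhg17 (−1.54), and 0 of 5 in knockout-labelled libraries. Factors of nonsense-mediated decay, which degrades spliced Gas5 and Snhg1, included 2 of 10 called lower after injury in controls, Smg6 (−1.29) and Smg1 (−0.75), and 0 of 10 in knockout-labelled libraries. Among other long noncoding RNAs, 8 of 24 were called lower after injury in controls and 1 higher: Meg3 (−3.34) and Rian (−2.96), both from the imprinted Dlk1-Dio3 region, Firre (−2.27) and Airn (−1.91) fell, and H19 rose by 1.70. In knockout-labelled libraries Meg3 (−2.10) and Rpph1 were the 2 of 23 called lower. Meg3 (−1.14) and Rian (−1.31) were also the 2 of 22 called lower in uninjured TRF2 MuSC-cKO.

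**Figure D5:**
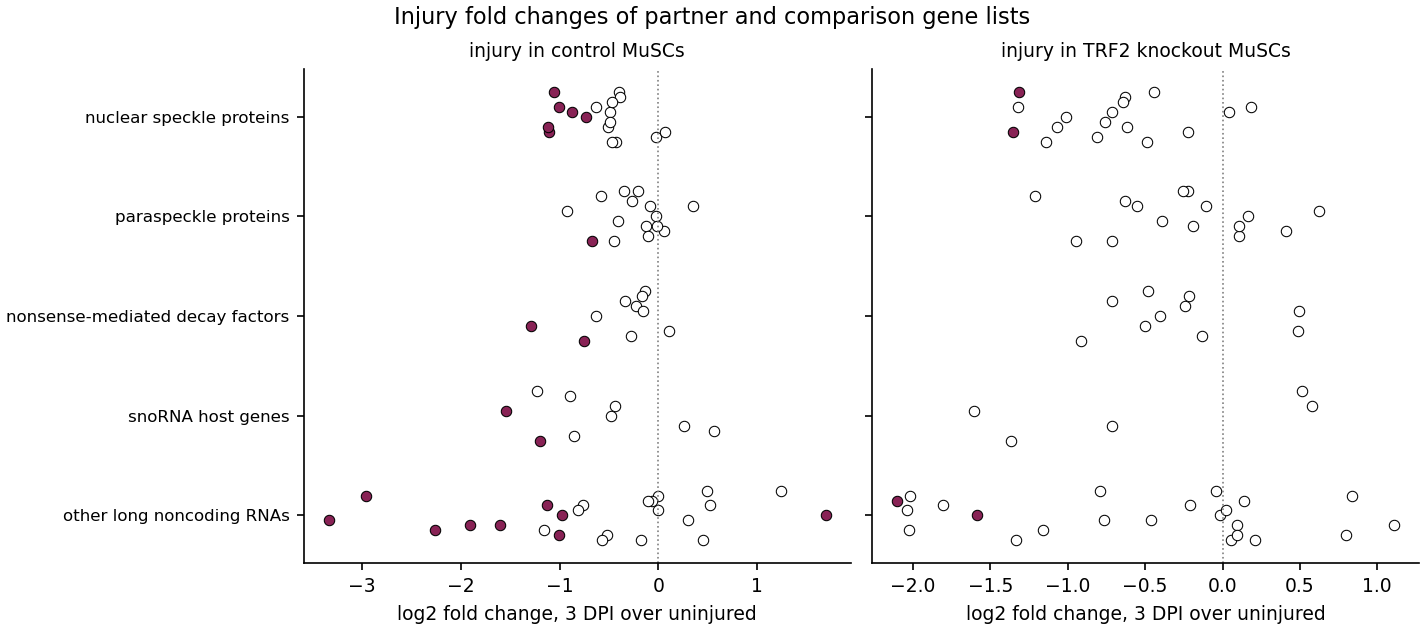
Log2 fold changes after injury of the listed genes, in controls and in libraries labelled TRF2 knockout (cKO), one point per gene with filled points called by edgeR. The lists drawn are nuclear speckle proteins, paraspeckle proteins, nonsense-mediated decay factors, snoRNA host genes and other long noncoding RNAs. Son lies at −1.11 and −1.35.

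The genes whose log2 CPM followed each member most closely over the 16 libraries, among 10085 with a mean of at least 20 counts (10086 for Snhg1), were named as a description with no test. They were Utrn (r = 0.975), Snrnp70 and Pik3r1 for Malat1, Dnajb1 (0.962), Pkd1 and Zfhx4 for Neat1, and Pcdh18 (0.952), Cdc42ep1 and Des for Gas5. They were Fam168a (0.930), Srek1 and Brpf3 for Kcnq1ot1, 4933438K21Rik (0.900), Map1a and Gpr179 for Miat, and Anapc5 (0.878), Cbx5 and Sin3b for Snhg1. Miat and Snhg1 ran in opposite directions (r = −0.765), and the same 4 groups and scaling lie behind all these values.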

How the data were processed

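RNA from sorted MuSCs was made into libraries with a stranded, randomly primed kit after rRNA depletion. According to the submitters' processing notes, Trim Galore 0.6.7, STAR 2.6.1d and Salmon 1.5.2 were used with GRCm38; how molecular identifiers were used is not given in the sources used here. The authors deposited estimated counts per gene that are not normalized, and a second table of estimated counts rescaled from abundance per length, which was used for TPM and implied lengths. Estimated counts were rounded to whole numbers. Groups came from the labels; the series has 4 biological replicates per group, and p-values measure the spread between these libraries.

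Genes passing filterByExpr were tested with edgeR 4.0.16 (quasi-likelihood, robust, TMM scaling, Benjamini-Hochberg over all genes tested) in R 4.3.3, each comparison on its own 8 libraries and the interaction on 16. Calls needed an adjusted p under 0.02 together with a change over 1.5-fold. Printed CPM were scaled by TMM over all 16 libraries, so a ratio of means can differ from a fitted fold change. Single values used exact two-sided permutation tests. A count of 0 was taken to allow up to 3 counts, and 95% intervals on counts cover counting error only. Correlations used log2 CPM with a prior count of 2.

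Alternatives were limma 3.58.1 (robust on log2 CPM, and voom), DESeq2 1.42.0, other scalings, no filter, all 16 libraries in 1 fit, a replicate block, the second table, and leaving out each library. The fits were tested on simulated data. Correlations of deviations between same-numbered libraries ran from −0.11 to 0.11, so the numbers were not taken as pairs. Positions and transcripts came from GENCODE on GRCm38, promoters from RefSeq (GRCm38.p6), where 5 of 6 members matched and Neat1 did not. Figures were drawn with matplotlib 3.10.9 in Python 3.11.15.

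The members and lists were chosen with earlier results of these data known. Named genes were the 6 members, Terf2, list genes called in a comparison (up to 4 of largest fold), the 3 closest correlates of each member and markers of other cell types.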

Additional observations from a re-analysis of the deposited data

Results flagged for a closer look

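In 28 groups of 4 libraries checked, 2 held 1 library far from the others (chance gives about 1 in 20). Snhg1 at 3 DPI in libraries labelled TRF2 knockout had 1 count in replicate 1 and 0 in the others, so its gap to the others, as a share of the whole range, was 1, at a depth where 3 counts can be missed. The implied Neat1 length in replicate 3 of the same group was 12.1 kb, a gap of 0.843 of the range; that library also had 15387 genes counted, and the part of this in the length was not tested.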

How the results depend on the processing

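Of 251 alternative values of the members, 232 kept direction and call. In controls after injury, Malat1, Neat1 and Gas5 were called in all 9 alternatives and Kcnq1ot1 in 4 of 9. In knockout-labelled libraries after injury, Neat1 was called in 8 of 9 (edgeR adjusted p = 0.122 in the second table), Malat1 in 7 of 9 (replicate block 0.0202, 0.0318 in the second table) and Gas5 in 2 of 9 (DESeq2 0.00577, all 16 libraries 0.00599). Members called thus numbered 4 with all 16 libraries, 1 under the replicate block and 0 with the second table. With all 16 libraries the last was Snhg1, which passed the filter there only through the groups where it was higher, so no conclusion is drawn from its call. Miat at 3 DPI ran from 1.41 to 1.66, with adjusted p from 0.0324 to 0.789. Signs turned for uninjured genotype values of Malat1 (0.068, library size alone) and Kcnq1ot1 (−0.027 without filter, −0.076 with all 16), for 3 DPI values of Malat1 (−0.082 without filter, −0.041 with all 16, −0.028 in the second table) and Neat1 (−0.021 without filter, −0.050 in the second table), and for the Gas5 interaction (0.023, robust limma); the cause was not tested.

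Counts called lower and higher in uninjured MuSCs were 142 and 157 (robust limma), 212 and 176 (library size), 70 and 12 (all 16) and 11 and 6 (second table). At 3 DPI they were 18 and 10 (robust limma), 5 and 1 (DESeq2) and 3 lower (all 16). In controls after injury they were 734 and 861 (all 16), and 1088 higher (second table). In knockout-labelled libraries they were 473 and 547 (robust limma), 233 higher (voom), 440 and 580 (DESeq2), 483 and 721 (all 16), 144 and 220 (replicate block) and 109 and 174 (second table). The interaction gave 78 and 45 (robust limma), 9 and 6 (DESeq2), and 1 lower with voom, the block and the second table.

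Leaving out 1 library gave 214 to 488 lower and 40 to 86 higher in uninjured MuSCs, 0 to 13 and 0 to 3 at 3 DPI, 1197 to 1704 and 1381 to 1640 in controls (3 to 4 members), 134 to 513 and 214 to 803 in knockout-labelled libraries (1 to 3 members), and 1 to 9 and 0 to 4 for the interaction. Members whose sign turned ranged, in uninjured MuSCs, from −0.079 to 0.14 (Kcnq1ot1) and −0.015 to 0.29 (Miat); at 3 DPI, from −0.14 to 0.16 (Malat1) and −0.10 to 0.18 (Neat1); and from −0.30 to 0.16 for the Gas5 interaction. Snhg1 is limited by depth.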
